A study of Mus musculus with 6 samples.

Results

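The carboxylesterases of mouse liver were taken as 10 genes by their symbols, Ces1b, Ces1c, Ces1d, Ces1e, Ces1f, Ces1g, Ces2a, Ces2e, Ces3a and Ces3b. All 10 were among the 18705 gene symbols of the deposited tables, and all 10 were among the 16594 genes that passed a filter on low values (a mean of at least 10 over the libraries) and were tested. Carboxylesterases are serine hydrolases that split ester, amide and thioester bonds in drugs, in other foreign compounds and in neutral lipids. Most of them sit in the lumen of the endoplasmic reticulum of hepatocytes, held there by a retrieval signal at the end of the chain, and a member without that signal is secreted into plasma. In mice the genes lie in tandem arrays, and several of the enzymes are known to act on the triglyceride that hepatocytes store or export as very low density lipoprotein.

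Poly(A) RNA came from livers of male C57BL/6 mice that were 1 year old, and a high-fat diet was given to both groups. One group received R159, a compound known here by its code name, and the other received vehicle, by injection into the peritoneum 2 times a week over 12 weeks. There were 3 libraries per group, and no group on another diet was analysed here. The labels do not state that each library is a separate animal, so the p-values measure the spread between these libraries, which may be technical in part. The series title names a non-canonical arm of gp130 signalling as the target, and the comparison here asks how carboxylesterase transcripts differed between compound and vehicle.

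Libraries of the R159 group were shallower and less alike than those of the vehicle group. Estimated depth was 51.3 to 55.7 (R159) and 66.0 to 76.7 (vehicle) in units of 1e6 reads. Between libraries of the same group, Pearson's r over tested genes was 0.939 to 0.949 in R159 and 0.979 to 0.986 in vehicle. R159 replicate 2 was the least like vehicle, with Pearson's r over tested genes of 0.910 to 0.918 against 0.937 to 0.942 for R159 replicate 1. Across genes, each library's deviation from the mean had a Spearman's rho with transcript length of -0.60 to 0.017 in R159 and 0.34 to 0.51 in vehicle, so long transcripts tended to be lower in 2 of the 3 R159 libraries. Depth was ample for all 10 genes, whose lowest value in any library was 2512 normalised counts, so the spread between libraries set the precision. Values are the authors' normalised counts, in which low values step by a fixed amount per library, taken as the worth of 1 read. Group values are mean ± SD with n = 3, and log2 fold changes are R159 minus vehicle on the scale of log2(value + 1).

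Promoter sequences are shown for 5 genes because they let the starts of Ces1b, Ces1g and Ces2e, the called members, be set beside those of paralogues of the same branch that were not called. RefSeq starts on GRCm38.p6 were found for 7 of the 10 genes, all on chromosome 8, and not for Ces1d, Ces1f and Ces3a. The Ces1 genes among them lie on the minus strand in 1 array and the Ces2 and Ces3 genes on the plus strand in another. Each sequence is the stretch before the start, 250 bases long, except that of Ces1b, for which the table gives 2 starts and the 77 bases between them were left out. The windows are chr8:93080018-93080190 for Ces1b, chr8:93131284-93131533 for Ces1c and chr8:93337210-93337459 for Ces1g (minus strand), and chr8:104926010-104926259 for Ces2e and chr8:104733753-104734002 for Ces2a (plus strand). Capitals mark bases identical in the pairwise alignment of Ces1b with Ces1c, of Ces1g with Ces1c, and of Ces2e with Ces2a.
Ces1b: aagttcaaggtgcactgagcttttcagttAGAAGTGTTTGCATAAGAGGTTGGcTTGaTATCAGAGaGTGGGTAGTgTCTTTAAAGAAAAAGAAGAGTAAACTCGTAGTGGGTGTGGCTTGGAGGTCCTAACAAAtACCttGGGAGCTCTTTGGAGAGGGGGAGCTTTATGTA
Ces1c: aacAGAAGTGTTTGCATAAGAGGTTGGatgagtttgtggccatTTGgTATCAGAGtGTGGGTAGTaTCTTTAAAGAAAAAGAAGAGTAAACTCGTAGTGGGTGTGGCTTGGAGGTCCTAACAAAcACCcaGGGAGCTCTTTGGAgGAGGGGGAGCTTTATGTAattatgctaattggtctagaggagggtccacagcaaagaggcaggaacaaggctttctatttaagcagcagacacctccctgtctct
Ces1g: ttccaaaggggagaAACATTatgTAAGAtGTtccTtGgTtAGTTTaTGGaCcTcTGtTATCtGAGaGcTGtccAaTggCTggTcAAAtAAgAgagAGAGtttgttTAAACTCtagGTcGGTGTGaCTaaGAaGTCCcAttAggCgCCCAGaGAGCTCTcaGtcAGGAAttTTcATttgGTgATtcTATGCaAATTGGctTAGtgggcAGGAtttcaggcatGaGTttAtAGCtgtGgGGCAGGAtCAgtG
Ces2e: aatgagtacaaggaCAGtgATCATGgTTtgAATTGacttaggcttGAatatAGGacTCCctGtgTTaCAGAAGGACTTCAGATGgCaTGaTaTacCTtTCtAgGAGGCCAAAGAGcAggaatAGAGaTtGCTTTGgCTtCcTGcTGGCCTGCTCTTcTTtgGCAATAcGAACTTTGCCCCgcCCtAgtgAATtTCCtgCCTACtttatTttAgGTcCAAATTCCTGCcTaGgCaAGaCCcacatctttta
Ces2a: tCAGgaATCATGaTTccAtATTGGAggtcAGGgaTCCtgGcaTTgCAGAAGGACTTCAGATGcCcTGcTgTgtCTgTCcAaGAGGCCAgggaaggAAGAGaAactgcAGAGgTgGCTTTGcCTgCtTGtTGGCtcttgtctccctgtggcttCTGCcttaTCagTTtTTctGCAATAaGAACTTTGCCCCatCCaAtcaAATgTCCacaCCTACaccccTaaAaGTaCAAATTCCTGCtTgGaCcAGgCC

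Ces1b and Ces1c, the pair in which both transcripts were higher in every R159 library than in any vehicle library, shared 137 of 147 aligned bases (93.2%) before their starts. Ces1c and Ces1g, which lay on opposite sides of 0, shared 141 of 203 aligned bases (69.5%). Ces2e, which was lower, and Ces2a, which overlapped between groups, shared 151 of 216 (69.9%). Taken over all bases of the shorter window, these shares were 79.2%, 56.4% and 60.4%. Only the pairs marked above are given. These identities describe tandem copies and carry no test, and whether identity goes with the direction of change was not tested. A search on both strands for TATAAA (the core of a TATA box) found it in Ces1g and Ces3b, and 12.4% of the 32851 windows of 250 bases in the table hold it. In Ces1g the match, at base -26, is on the opposite strand and reads TTTATA in the sequence shown. CCAAT was found in Ces1c, Ces1g, Ces2a and Ces3b, against 33.8% of all windows. In Ces1c it lies at base -78, past the stretch aligned with Ces1b. The Ces1b window is shorter, at 173 bases, so a motif not found there is not set against a full window. The half-site AGGTCA bound by nuclear receptors was in Ces2a (14.0% of all windows), and GTTAAT, a half-site of HNF1, was in Ces3b (6.43%). TTCNNNGAA, the palindrome read by STAT factors, matched 0 of the 7 windows and 7.02% of all windows. No match overlapped that of another motif, and a match or its absence says only which letters stand on either strand of these windows.

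The 10 transcripts differed widely in level. Divided by transcript length, Ces1c, the secreted plasma esterase, stood at 55571 ± 10253 normalised counts per kb in vehicle and Ces3a at 49053 ± 5218, and their ranges overlapped. Next came Ces1f at 12879 ± 1553 and Ces1d at 11918 ± 1323 per kb, which also overlapped one another. Ces1g (7703 ± 590 per kb) lay below both and above Ces2e (5742 ± 322), with no overlap between these neighbours. Ces1e (4656 ± 988), Ces2a (2487 ± 388), Ces3b (2165 ± 730) and Ces1b (1558 ± 358 per kb) followed. Ces1e overlapped Ces2e and lay above Ces2a, and each of the last 3 overlapped the next. In R159 the first 4 places were the same, while Ces1g had come down to the level of Ces2e (3938 ± 437 and 3888 ± 243 per kb) and the ranges overlapped. Together the 10 genes made up 0.526% to 0.560% of all normalised counts in vehicle and 0.490% to 0.672% in R159, so the family's share of the total overlapped between groups.

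**Figure D1:**
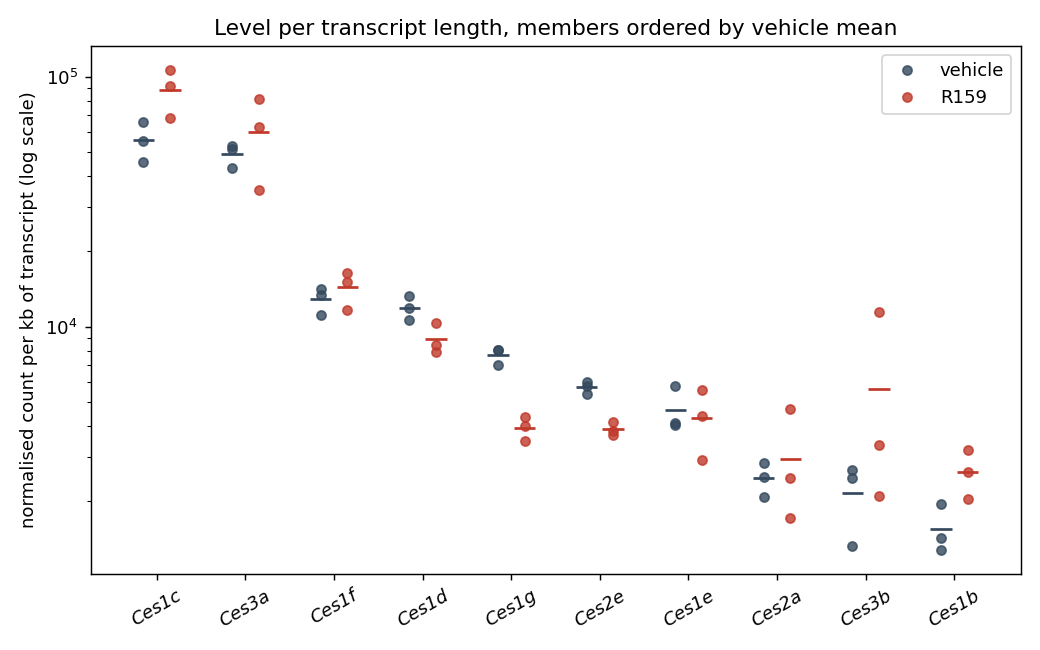
Normalised counts per kb of transcript (log scale) for the 10 carboxylesterases, ordered by vehicle mean; points are libraries (3 per group) and lines are means. Ces1c and Ces3a lie above the rest in both groups, and Ces1g drops from 7703 to 3938 per kb, beside Ces2e.

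limma called 3 of the 10 genes at an adjusted p under 0.05. Ces1b was higher in R159, and Ces1g and Ces2e were lower. Over all 16594 tested genes 27.0% were called (12.8% higher and 14.2% lower), so the members' count is near that background. Groups did not overlap for 5 members, Ces1b and Ces1c (higher) and Ces1d, Ces1g and Ces2e (lower), and the same held for 46.2% of the tested genes (22.5% higher and 23.6% lower). The members' median log2 fold change was 0.14 and the median size of change 0.49, against 0.00069 and 0.54 over all tested genes. Because of the relation with length given above, lengths matter here: the members' transcripts are 1828 to 2699 nt long. The 2716 tested coding genes of that length had a median log2 fold change of 0.028, and 18.6% of them were called.

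**Figure D2:**
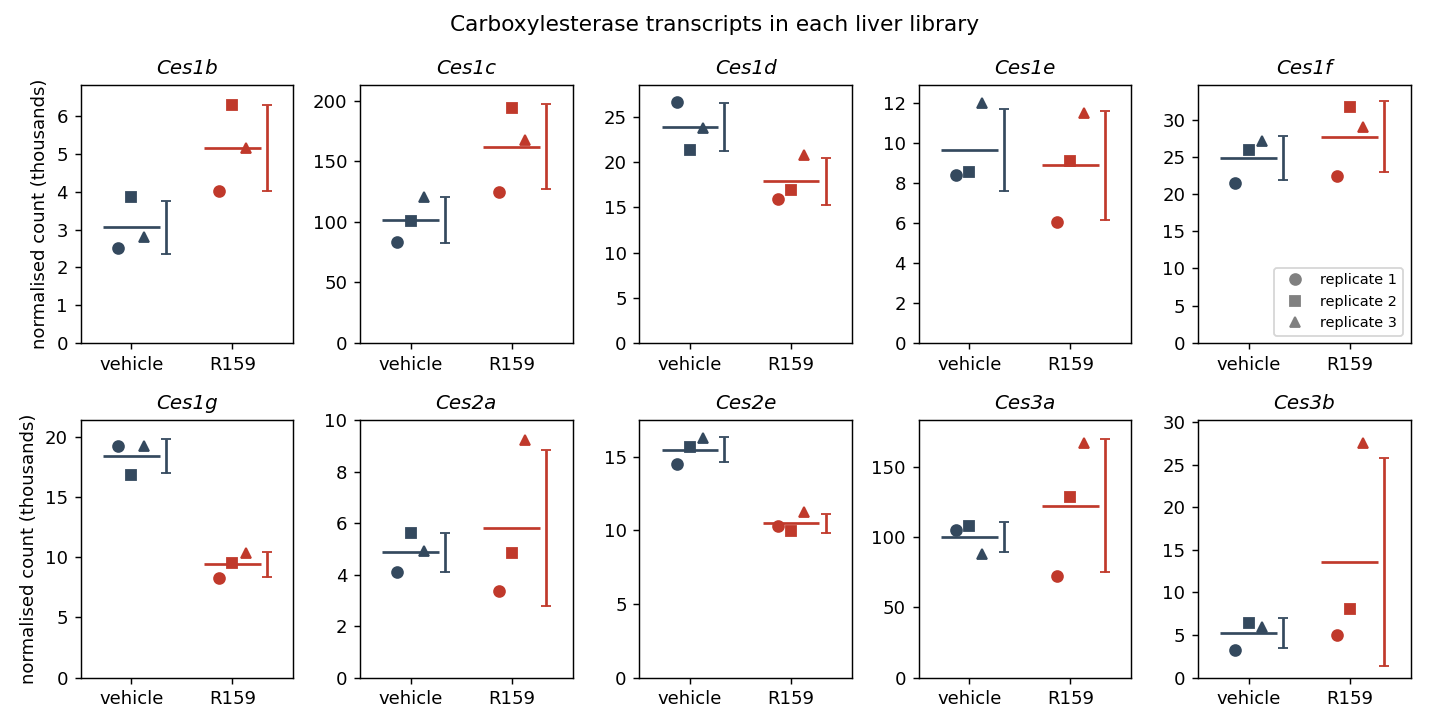
Normalised counts, in units of 1000, of each carboxylesterase in every library, with the group mean (line) and SD (bar), n = 3 per group; marker shapes give the replicate number, which does not pair the groups. Ces1g and Ces2e lie lower in all 3 R159 libraries, Ces1b and Ces1c lie higher, and Ces2a, Ces3a and Ces3b spread widely within R159.

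Ces1g, a liver hydrolase whose loss in mice is known to raise liver fat and blood lipids, showed the clearest difference. It was at 19223, 16769 and 19191 normalised counts in vehicle replicates 1 to 3, and at 8302, 9536 and 10375 in R159 replicates 1 to 3. The groups were far apart, with the highest R159 library well under the lowest vehicle library. The mean fell from 18394 ± 1408 to 9404 ± 1043 (log2 fold change -0.97, SE 0.16, limma adjusted p = 0.00517). The call held under all 16 other settings and with any 1 library left out, at log2 fold changes of -1.08 to -0.85.

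Ces1d, also called triacylglycerol hydrolase, supplies lipid for very low density lipoprotein. It was at 26614, 21317 and 23722 normalised counts in vehicle and at 15913, 16877 and 20812 in R159. The R159 libraries were all lower, but the gap between groups was small beside the spread within them. The log2 fold change of -0.42 (95% confidence interval -0.83 to -0.01) was not past the threshold (limma adjusted p = 0.113, and 0.0538 with the length trend removed).

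Ces1b, a neighbour of Ces1c in the array, was the least abundant member per kb in vehicle. Its values were 2512, 3853 and 2813 normalised counts in vehicle and 4026, 6307 and 5153 in R159. The lowest R159 library lay just above the highest vehicle library. The mean rose from 3059 ± 704 to 5162 ± 1141 (log2 fold change 0.75, SE 0.22, limma adjusted p = 0.0334). The call was lost with 1 library out, namely R159 replicate 2 (adjusted p = 0.0899) or 3 (0.0740), or vehicle replicate 1 (0.115) or 3 (0.105), and also without the empirical Bayes trend (0.0849) and with library weights (0.0824).

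Ces1c, the secreted member, was at 83235, 100821 and 120697 normalised counts in vehicle and at 124646, 194371 and 167285 in R159. The lowest R159 value lay close above the highest vehicle value. Its log2 fold change of 0.67 (95% confidence interval 0.03 to 1.30) was near that of Ces1b but not past the threshold (limma adjusted p = 0.107), and it was called without R159 replicate 1 (0.84, adjusted p = 0.0473). Of the windows of 50 bases in the Ces1b transcript 10.8% also occur in another carboxylesterase transcript, most of them in Ces1c, and 13.4% of those in Ces1c occur elsewhere in the family. Reads from these stretches can belong to either gene, and how they were assigned is not given in the sources used here.

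Ces1e, known as egasyn, binds beta-glucuronidase and keeps it in the endoplasmic reticulum. It was at 8389, 8551 and 12014 normalised counts in vehicle and at 6076, 9109 and 11536 in R159, and the groups overlapped throughout (log2 fold change -0.14, 95% confidence interval -0.71 to 0.42, limma adjusted p = 0.695). Ces1f, a further member of the same array, was at 21430, 25848 and 27135 in vehicle and at 22361, 31629 and 29011 in R159. These ranges overlapped too (log2 fold change 0.15, 95% confidence interval -0.30 to 0.60, limma adjusted p = 0.602). Changes of up to about the ends of these intervals cannot be told from none with 3 libraries a group.

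Ratios within a library do not depend on how libraries were scaled. The ratio of Ces1b to Ces1g was 0.131, 0.230 and 0.147 in vehicle replicates 1 to 3 and 0.485, 0.661 and 0.497 in R159 replicates. The ratio of Ces1c to Ces1d was 3.13, 4.73 and 5.09 in vehicle and 7.83, 11.5 and 8.04 in R159. Neither ratio overlapped between groups, which the values of the single genes already fixed, since none of these 4 overlapped and the pairs join a higher with a lower gene. Ces1d and Ces1g were both lower in R159, but not in proportion: Ces1d was 1.24 to 1.38 times Ces1g in vehicle and 1.77 to 2.01 times in R159. The ratio of Ces1c to Ces1b, by contrast, overlapped, at 26.2 to 42.9 in vehicle and 30.8 to 32.5 in R159. The pairs were picked after their values were seen, so these ratios are given as a description with no test.

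**Figure D3:**
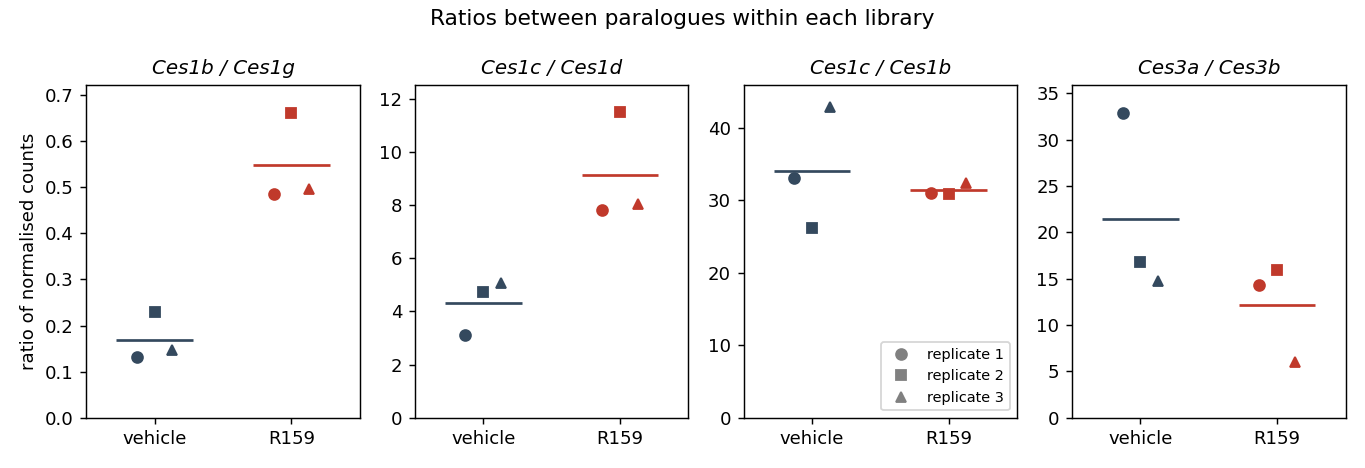
Ratios of normalised counts between paralogues in each library (points; shapes give the replicate number, lines the group mean, 3 libraries per group). Ces1b to Ces1g and Ces1c to Ces1d lie higher in every R159 library (0.485 to 0.661 against 0.131 to 0.230 for the first), while Ces1c to Ces1b and Ces3a to Ces3b overlap.

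In the Ces2 branch, Ces2e had values that lay close together within each group. It was at 14547, 15694 and 16252 normalised counts in vehicle and at 10284, 9967 and 11227 in R159. No R159 library came near the vehicle range. The mean fell from 15498 ± 869 to 10493 ± 656 (log2 fold change -0.56, SE 0.15, limma adjusted p = 0.0252). Leaving out vehicle replicate 1, 2 or 3 ended the call (adjusted p = 0.0637, 0.117 and 0.0934), as did leaving out the empirical Bayes trend (0.0510), while the log2 fold change stayed between -0.67 and -0.48.

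Ces2a, an enzyme known to hydrolyse diacylglycerol and other acylglycerols, behaved otherwise. It was at 4089, 5605 and 4932 normalised counts in vehicle and at 3372, 4855 and 9218 in R159. R159 replicate 3 was above every vehicle library and R159 replicate 1 below every one. The log2 fold change was 0.14 (95% confidence interval -0.59 to 0.87, limma adjusted p = 0.773), and without R159 replicate 3 it was -0.26 (adjusted p = 0.417). The ratio of Ces2e to Ces2a was 2.80 to 3.56 in vehicle and 1.22 to 3.05 in R159, so it overlapped between groups.

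Both Ces3 genes spread widely among the R159 libraries. Ces3a was at 104897, 108021 and 88167 normalised counts in vehicle and at 72255, 128610 and 166788 in R159. The R159 libraries lay on both sides of the vehicle range (log2 fold change 0.21, 95% confidence interval -0.53 to 0.95, limma adjusted p = 0.657). Without R159 replicate 3 the log2 fold change was -0.05.

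Ces3b was at 3191, 6428 and 5987 normalised counts in vehicle and at 5032, 8046 and 27531 in R159. R159 replicate 3 lay far above all the other libraries, and R159 replicate 1 lay inside the vehicle range. The log2 fold change of 1.06 (95% confidence interval -0.17 to 2.29) was the largest in size of the 10, and it was not past the threshold (limma adjusted p = 0.174); without R159 replicate 3 it was 0.36 (adjusted p = 0.464). Ces3a and Ces3b share much sequence: 30.9% of the windows of 50 bases in the Ces3a transcript and 26.1% of those in Ces3b occur in the other, so the split of reads between them is uncertain. The ratio of Ces3a to Ces3b was 14.7 to 32.9 in vehicle and 6.06 to 16.0 in R159, with overlap. An exon of Gm45724, on the opposite strand, overlaps Ces3a, but its values were 28.5 to 237 normalised counts in the 6 libraries, small beside those of Ces3a.

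**Figure D4:**
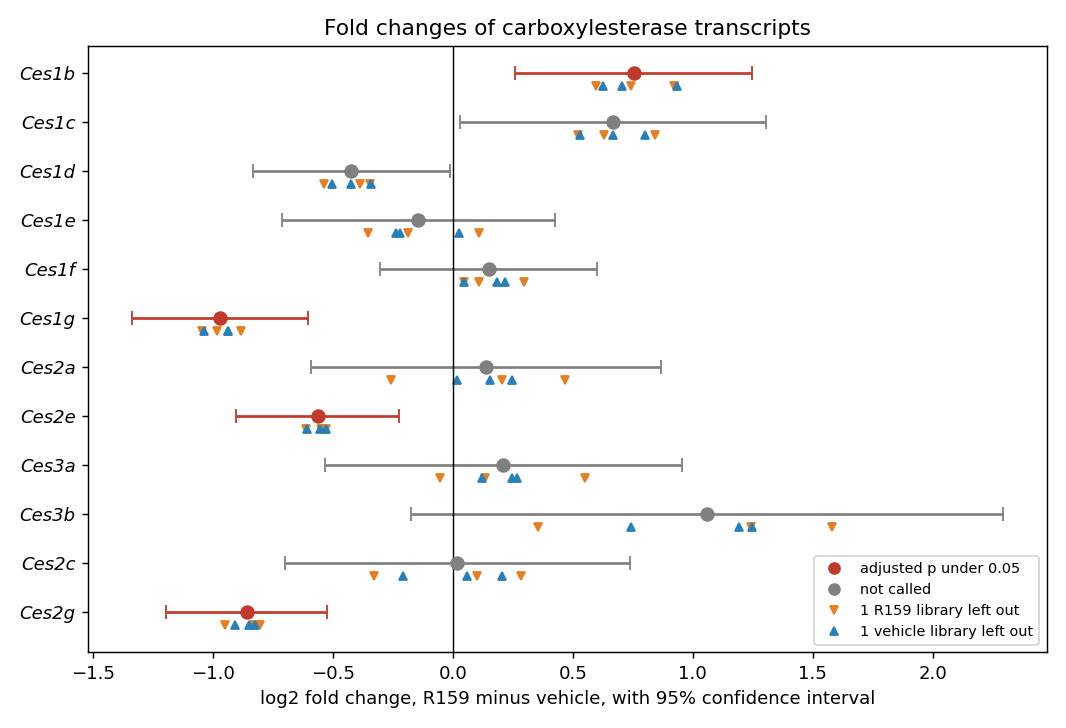
log2 fold changes (R159 minus vehicle) with 95% confidence intervals for the 10 carboxylesterases and for Ces2c and Ces2g; triangles below each point are the fold changes with 1 library left out. Ces1g (-0.97), Ces2e (-0.56) and Ces2g (-0.86) stay below 0 throughout, and Ces3b moves from 1.06 to 0.36 without R159 replicate 3.

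Within R159, replicate 1 held the lowest value of 9 members and replicate 3 the highest of 7. Over 16583 distinct tested symbols, replicate 1 was lowest for 33.6% and replicate 3 highest for 28.7%, and members share their libraries, so these counts are a description. Replicate 2 was highest for Ces1b, Ces1c and Ces1f. Without R159 replicate 2, the library least like vehicle, Ces1g gave -0.98 (limma adjusted p = 0.0137) and Ces2e gave -0.53 (adjusted p = 0.0494), while Ces1b gave 0.60 (adjusted p = 0.0899).

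Other genes of the family were looked up from a list of 9, of which 6 had rows, and the pseudogene Ces2d-ps also had one. limma called 1 of these 7, Ces2g, which lies in the same array as Ces2e. Ces2g was at 3846, 4306 and 4171 normalised counts in vehicle and at 2167, 2086 and 2555 in R159, with no overlap (log2 fold change -0.86, SE 0.15, limma adjusted p = 0.00568). Its call held under all the other settings. Ces2c, which lies between Ces2a and Ces2e, was at 2793, 3417 and 1925 in vehicle and at 1852, 4321 and 2390 in R159 (log2 fold change 0.02, limma adjusted p = 0.970). Ces1a, Ces2b, Ces2h, Ces4a and Ces2d-ps were low, with group means of 6.96 to 98.2 normalised counts, and all overlapped between groups. Ces4a was at 267 in R159 replicate 3 and at 4.33 to 29.2 in the other libraries, so it was high in the same library as Ces3b.

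Enzymes of the same reactions did not move as one. Of 20 neutral lipid hydrolases and their regulators, limma called 1 higher and 6 lower (median log2 fold change -0.22), and 1 and 2 with the length trend removed. The lysosomal acid lipase gene Lipa fell from 17088 ± 1187 to 9174 ± 820 (log2 fold change -0.90, limma adjusted p = 0.00573), and the hydrolase gene Abhd2 fell from 18439 ± 1599 to 3975 ± 339 (-2.21, adjusted p = 0.00163). G0s2, an inhibitor of adipose triglyceride lipase, rose from 9167 ± 3725 to 21916 ± 7024 (1.31, adjusted p = 0.0237), a call lost with the length trend removed (0.54, adjusted p = 0.233). Aadac, a microsomal esterase related to the carboxylesterases in function, gave 0.53 (adjusted p = 0.0627).

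Of 18 other hydrolases of esters, thioesters, lactones and epoxides, 3 were called higher and 4 lower (median 0.17), and 1 and 3 with the length trend removed. The plasma lactonase gene Pon1 rose from 29487 ± 3114 to 53546 ± 5360 (log2 fold change 0.86, limma adjusted p = 0.0130; 0.0564 and 0.0773 without vehicle replicate 1 or 2). Bche, the plasma butyrylcholinesterase gene, fell from 6483 ± 839 to 3403 ± 142 (-0.92, adjusted p = 0.00497; 0.0583 with the length trend removed). Siae, a sialic acid esterase gene, fell from 3755 ± 194 to 1393 ± 236 (-1.44, adjusted p = 0.00311). The microsomal epoxide hydrolase gene Ephx1 fell from 41913 ± 10323 to 22570 ± 7804 (-0.91, adjusted p = 0.0424), although its groups overlapped. Its call was lost without R159 replicate 1 or 3 or vehicle replicate 1 or 2 (adjusted p = 0.0899 to 0.147). It was also lost without the empirical Bayes trend (0.0895).

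Of 20 genes of very low density lipoprotein assembly and export, 3 were called higher and 4 lower (median -0.08), and 1 and 1 with the length trend removed. Apob, the structural protein of the particle, fell from 243888 ± 18879 to 113536 ± 1418 (log2 fold change -1.10, limma adjusted p = 0.0153), and Mttp, which loads it with lipid, fell from 19078 ± 2181 to 12230 ± 1945 (-0.65, adjusted p = 0.0300). Apoc3, an inhibitor of lipoprotein clearance, rose from 62330 ± 3205 to 140422 ± 48906 (1.11, adjusted p = 0.0258). All 3 calls were lost with the length trend removed (adjusted p = 0.102, 0.182 and 0.617). Sar1b and Pla2g12b were the other 2 higher, and Mia3 and Surf4 the other 2 lower. With the length trend removed Sar1b, Pla2g12b and Surf4 lost their calls too (adjusted p = 0.0866, 0.839 and 0.0655). Mia3 kept its call (adjusted p = 0.0166), and the 1 higher was Tmem41b (0.79, adjusted p = 0.0131), not called before.

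Of 16 nuclear receptors and transcription factors of drug and lipid metabolism, 2 were called higher and 4 lower (median -0.19), and 1 and 1 with the length trend removed. Nr1i3, which encodes CAR, a receptor known to act on carboxylesterase genes, rose from 8075 ± 1753 to 19147 ± 7169 (log2 fold change 1.20, limma adjusted p = 0.0179). The call was lost without R159 replicate 2 (adjusted p = 0.0520), vehicle replicate 3 (0.0695) or the empirical Bayes trend (0.0577). Nr1i2, which encodes the related receptor PXR, was at 3730 ± 253 and 3235 ± 311 (-0.21, adjusted p = 0.317). Hnf4a, a master factor of hepatocyte genes, fell from 33780 ± 5373 to 21191 ± 3110 (-0.67, adjusted p = 0.0382; 0.166 with the length trend removed). Rxra, Ppara and Nr3c1 were also lower and Nr1h3 higher. With the length trend removed Ppara kept its call (adjusted p = 0.00505), and Rxra, Nr3c1 and Nr1h3 lost theirs (adjusted p = 0.0666, 0.861 and 0.0636).

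Of 16 genes of endoplasmic reticulum retention and folding, 4 were called, all lower (median -0.30), among them Canx, the calnexin gene that folds glycoproteins (log2 fold change -1.17, limma adjusted p = 0.00402), and Stt3b, a subunit of the enzyme that attaches N-glycans (-0.95, adjusted p = 0.00599). Kdelr1 and Kdelr2, which encode receptors that return proteins with a retrieval signal, gave -0.24 and 0.17 (adjusted p = 0.331 and 0.557). Kdelr3, a further gene for such a receptor, was low, at 37.4 ± 16.8 in vehicle and 21.2 ± 18.0 in R159 (-1.02, limma adjusted p = 0.282). With the length trend removed the list held 1 higher and 4 lower: Uggt1 and Stt3a lost their calls (adjusted p = 0.434 and 0.606), Kdelr1 (-0.48, adjusted p = 0.0316) and Pdia6 (-0.51, 0.0449) were called lower, and Erp29 (0.67, 0.0348) was called higher. Of 19 genes of conjugation, the step that follows hydrolysis for many drugs, 5 were called higher and 1 lower (median 0.45). With the length trend removed the numbers were the same (median 0.23), but not the genes. Sult1a1 and Nat2 lost their calls (adjusted p = 0.112 and 0.0652), and Tpmt (0.56, adjusted p = 0.0479) and Glyat (0.73, adjusted p = 0.0442) were called higher. The sulfotransferase gene Sult2a8 rose from 11041 ± 2100 to 34028 ± 4799 (1.63, adjusted p = 0.00311), and Sult1d1 rose from 2460 ± 275 to 5909 ± 753 (1.26, adjusted p = 0.00343). Ugt1a6a, a glucuronosyltransferase gene, was the 1 lower (-0.64, adjusted p = 0.0227). These lists were described by their counts and medians, beside 27.0% called and a median of 0.00069 over all tested genes in the main fit. The background for the counts with the length trend removed is lower. That fit called 2913 genes over the series (1597 higher and 1316 lower, median 0.0069), against 4479 in the main fit, and it held the 96.8% of tested genes with a known length. Aadac, Nr1i2, Tmem41b, Kdelr1, Kdelr2, Kdelr3, Pdia6, Erp29, Tpmt and Glyat were singled out after their values were seen. Abhd2, Lipa, Siae, Mia3, Ppara, Canx, Stt3b, Sult2a8 and Sult1d1 kept their call under all 16 other settings, and each other gene called in these lists and named here lost it under at least 1.

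The tested gene outside the family most like each member over the 6 libraries was taken by Pearson's r of log2 values, among 11990 genes with a mean of at least 100. The 6 points share 2 groups and their depth, so r is a description. Ces1g was most like Stom (r = 0.9994), and 436 genes reached r of at least 0.95 with it. Ces1b was most like the gene listed as ENSMUSG00000120314 (r = 0.994, 35 genes), and Ces1c most like B3gat3 (r = 0.9997, 108 genes). Ces3b was most like the fibrinogen gene Fgb (r = 0.992, 29 genes). Fgb was highest in R159 replicate 3, at 310939 normalised counts against 148212 to 207827 in the other libraries. Because Fgb was picked by its r with Ces3b, a peak in the same library follows from the choice and adds nothing to it. Ces3a was most like Rps4l (r = 0.996, 21 genes). The nearest genes to Ces1d, Ces1e, Ces1f and Ces2a were Slc46a3, Set, Stip1 and Uox.

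Markers of cell types were summed per library beside these results. The 11 hepatocyte markers with a row, among them Alb, Apoa1 and Ttr, summed to 4965411 to 6922235 normalised counts in vehicle and 5753420 to 9601731 in R159, far above every other list, and 1 of 11 was called, lower. Erythroid markers (5 of 7 called higher) summed to 12936 to 21824 in vehicle and 40775 to 59953 in R159. Kupffer cell and macrophage markers (4 of 12 called lower) summed to 19307 to 29385 and 15659 to 18884, and stellate cell markers (5 of 10 called lower) to 21015 to 37721 and 14050 to 29399. Sinusoidal endothelial markers (1 of 10 lower) ranged from 9574 to 13445 and from 8763 to 11125, and cholangiocyte markers (1 of 6 tested higher) from 4151 to 12138 and from 2053 to 4149. The cholangiocyte sum was lower in R159, by a bare gap, while the 1 marker called was higher, and none was called lower. T and NK cell markers (0 of 9 tested called) summed to 199 to 620 in vehicle and 255 to 696 in R159, and B and plasma cell markers (2 of 8 called higher) to 2089 to 2399 and 2645 to 10104. Fat also expresses some carboxylesterases; of 6 adipocyte markers only Cfd has a row in the tables, at 186 to 604 in vehicle and 72.6 to 2956 in R159. Marker sums for intestine (3 of 6 with a row, 1 tested and called higher) were 5399 to 8404 and 10793 to 30218. The intestinal rows not tested had means under 10, so that sum is nearly the value of 1 gene. Cdx1, Cdx2 and Lct had no row, and whether the sum reflects intestinal tissue was not tested. For kidney (2 of 6 with a row, 1 tested and not called) the sums were 30.2 to 119 and 78.4 to 162. No marker with a row was at 0 in all 6 libraries. All these marker calls are from the main fit, and marker calls with the length trend removed are not given. Apob, the 1 hepatocyte marker called lower, lost its call with that trend removed (limma adjusted p = 0.102). How far the relation with transcript length enters the other marker calls and sums was not tested. The part of these cell types in the carboxylesterase values was not tested, and in whole liver fewer cells of a type and less RNA per cell cannot be told apart.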

How the data were processed

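Poly(A) RNA-seq of 6 mouse liver libraries was analysed, 3 of R159 and 3 of vehicle, grouped by their titles; per the labels' protocols the libraries were stranded and read as paired ends. Tools named by the submitters' processing notes are STAR 2.7.8a, R 4.2.3, DESeq2 (version written as 3.5), cutadapt and FastQC 0.11.9, and the build is mm39, without saying what each did. Not given in the sources used here: the annotation, the counter and whether it used strand. The deposited values are a signal per gene that the authors call normalised counts, and how they were normalised is not stated. Low values step in each library by a fixed amount, taken as the worth of 1 read, which gave the estimated depth, but among values below 200 reads a share of 67.8% to 76.1% came out whole (tolerance 0.02), so no count model was used.

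Values were taken as log2(value + 1) for genes with a mean of at least 10 and fitted with limma 3.58.1 in R 4.3.3 (group as the only term, eBayes with trend, Benjamini-Hochberg adjustment over all 16594 genes, threshold 0.05, two-sided). The fold change understates that of low genes. The code was tested on simulated data. Alternatives were other pseudocounts, filters, scalings and thresholds, eBayes without trend, library weights, a replicate block, removal of the length trend, and each library left out. Lengths are those of the longest coding transcript of GENCODE M21 (96.8% of tested genes). Promoters are from RefSeq on GRCm38.p6, another build than that of the files, and were aligned with Biopython 1.88. Named genes were the members, the family, the called genes of smallest p in each list (up to 4 a direction, of which some are given) and the most alike gene of each member (that of Ces2e is not reported here). The members, lists and tests were chosen with earlier results of these data known.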

Additional observations from a re-analysis of the deposited data

How the results depend on the processing

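Ces1g kept its call under all 16 alternatives (log2 fold change -1.08 to -0.85), Ces2e kept its under 12 and Ces1b under 10, and all 3 kept their direction; Ces1d (-0.54 to -0.27), Ces1c (0.52 to 0.84) and Ces1f (0.04 to 0.30) kept theirs. limma called 4479 genes over the series, 2913 with the length trend removed and 1841 to 5425 with 1 library left out (2500, 1841 and 2183 without vehicle replicates 1, 2 and 3). Without the empirical Bayes trend 1 member was called, 0 higher (2 at an unadjusted p under 0.05) and 1 lower, beside 3085 genes over the series. With library weights 0 members were higher (3 at an unadjusted p under 0.05) and 2 lower, beside 5579 genes over the series. With 1 library left out 1 to 4 members were called, 0 to 2 of them higher and 1 to 2 lower. With the replicate number as a block 2 members were higher, Ces1b and Ces3b (limma adjusted p = 0.0463), and 2 lower; same-numbered libraries share only a number (correlation of deviations -0.0981, 0.0314 and 0.108), and 3945 genes were called over the series. Rescaling without the 20 highest genes moved the median of all tested genes to -0.11, and no member's direction or call. Directions turned for genes that were not called: Ces1e with library weights (0.10) and over leave-one-out fits (-0.36 to 0.11), and over leave-one-out fits Ces2a (-0.26 to 0.47), Ces3a (-0.052 to 0.55), Ces1a (-0.64 to 0.19), Ces4a (-0.80 to 2.02), Ces2d-ps (-0.11 to 0.39), Ces2h (-0.30 to 0.64, and -0.039 with weights), Stip1 (-0.016 to 0.22, and -0.015 without the 20 highest genes), Uox (-0.15 to 0.20, and -0.071 without them) and Rps4l (-0.14 to 0.87, and -0.38 with the length trend removed). Ces2c, at 0.02, gave -0.011 with trimmed mean factors, -0.091 without the 20 highest genes, -0.21 with weights, -0.069 with the length trend removed and -0.33 to 0.28 over leave-one-out fits. The cause was not tested. Of 811 values of 51 other named genes, 683 kept direction and side of the threshold, 105 lost the call, 20 turned and 3 gained a call (B3gat3 with library weights and without R159 replicate 1, and Rps4l without R159 replicate 1, limma adjusted p = 0.0421). With 3 libraries a group the intervals, not the depth, limit what can be seen.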
